A study of Mus musculus with 6 samples.

Results

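The mouse genes for translation initiation factors, the kinases that phosphorylate eIF2 and the proteins that hold back eIF4E were examined in fetal cortical cells treated with vehicle or 10HDA. They were chosen by name, as the autosomal protein-coding genes whose symbols begin with Eif and a digit from 1 to 6, and they made up 52 of the 43346 genes in the count table. By name they formed 8 groups, namely eIF1 (4 genes), eIF2 with eIF2B (9), the eIF2 kinases (4), eIF3 (14), eIF4 (13), the 4E-BPs (3), eIF5 (4) and eIF6 (1). The rule left out 10 other genes of the name pattern, among them the X-linked and Y-linked genes for the gamma subunit of eIF2 and 6 processed pseudogenes.

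Initiation of translation brings a ribosome and the initiator tRNA to the start codon of an mRNA. eIF2 carries the initiator tRNA, eIF1 and eIF5 set how strictly the start codon is chosen, eIF3 organises the small ribosomal subunit, and eIF4E, eIF4G and eIF4A bind and unwind the capped end of the mRNA. Cells limit initiation mainly at the exchange factor eIF2B, which is blocked when a kinase phosphorylates eIF2, and at eIF4E, which the 4E-BPs hold until mTORC1 phosphorylates them. In neurons both controls act on the protein synthesis that lasting changes of synapses need.

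Primary cultures of cortical cells from mouse fetuses of gestational day 15.5 received either vehicle, written DSMO in the labels and DMSO in the methods, or 10HDA, which royal jelly contains as its main fatty acid, at 1 mM. Both groups were labelled as strain Cyp19-EGFP and as genotype SRY+, that is male, whereas C57BL/6 embryos are named in the methods. There were 3 libraries per treatment, and each of cultures 1, 3 and 4 gave 1 library of each treatment. How long the cells were treated, and whether a culture pooled several embryos, is not given in the sources used here.

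The libraries held 9144736 to 13367194 counts on genes, and the 52 genes together took 6912 to 7432 CPM, that is counts relative to library size after TMM scaling. Both libraries of culture 1 went against the male label, since 4 genes of the Y chromosome (Eif2s3y and Uty with Kdm5d and Ddx3y) summed there to 8.83 and 9.41 CPM and elsewhere to 90.0 to 131 CPM (on unscaled totals). Results for Eif4ebp1, Eif1, Eif1ad, Eif6 and Eif3a are therefore also given without culture 1. Calls in gene lists outside the initiation factors are given without it only as counts. Neuronal markers summed to 8789.9 to 9210.5 CPM with vehicle and 7289.7 to 8223 CPM with 10HDA, with 10 of 12 markers lower, 0 of them past the threshold used here (5 under an unadjusted p of 0.05), 3 with DESeq2 and 5 with culture as a block. Astrocyte markers summed to 1244 to 1522 CPM with vehicle and 916 to 1144 CPM with 10HDA, with 9 of 9 tested markers lower, 5 of them past the threshold. Oligodendrocyte lineage markers spanned 336 to 418 CPM with vehicle and 253 to 362 CPM with 10HDA, radial glia and progenitor markers 359 to 370.3 and 387 to 414 CPM, and endothelial and pericyte markers 17.8 to 19.3 and 8.25 to 11.3 CPM. Meningeal markers summed to 11.1 to 14.3 and 6.78 to 8.51 CPM. Pdgfrb, a pericyte gene, made up most of the endothelial and pericyte sum, at a mean of 15.7 CPM with vehicle and 7.38 CPM with 10HDA. Dcn made up most of the meningeal sum, at 9.18 and 4.49 CPM, while the collagen genes Col1a2 and Col3a1 stayed under 1 CPM and had slightly higher means with 10HDA. All 7 microglial markers stayed under a mean of 1 CPM. Neuronal, astrocyte, endothelial and meningeal sums were lower, and radial glia sums higher, in every 10HDA library than in any vehicle library. Of the 6 tested radial glia and progenitor markers, however, 3 were higher and 3 lower, with a median log2 fold change of 0.021. The part of these sums in the results that follow was not tested. In such whole cultures, fewer cells of a type and less RNA per cell cannot be told apart.

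Because the bases around the start codon bear on what eIF1 does, these bases are shown for some of the genes. They are the genes past the threshold without or with culture as a block, together with Eif1b and Eif5. Each line gives 9 bases before the ATG, the ATG in capitals and 3 bases after it. The bases were read from GENCODE M21 transcripts (GRCm38), 1 transcript per gene.
Eif1: tcgtatcgtATGtcc
Eif1b: tagtgtcgcATGtcc
Eif1ad: gaaaccagcATGtct
Eif5: taagccaaaATGtct
Eif6: gcctctctcATGgcg
Eif3a: accgtcaagATGccg
Eif4ebp1: gcaggagacATGtcg
A purine 3 bases before the ATG and a G right after it are the parts of the Kozak context known to matter most. Eif4g2 was not counted, since no complete transcript with an annotated ATG start and at least 9 bases before it was found. Of the 51 genes counted, 44 (86.3%) had the purine and 25 (49.0%) had the G, against 84.4% and 49.4% of 20697 protein-coding genes. Neither base was present in 4 (7.84%), namely Eif1, Eif1b, Eif3b and Eif4e1b, against 7.46% of all. The shares of the initiation factor genes were thus close to those of all genes, and both eIF1 paralogs were among the few with neither base.

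The factors differed far more in level among themselves than between treatments. Per kilobase of gene model, so that genes of different length can be set beside each other, Eif4g2 was highest with vehicle at 230.4 ± 3.76 CPM per kilobase (SD, n = 3), and Eif4g2 encodes a relative of eIF4G that lacks the binding site for eIF4E. Eif5a followed at 158 ± 26.7 CPM per kilobase, then Eif1b at 136 ± 13.8, Eif4h at 129 ± 15.7 and Eif3h at 100.2 ± 9.99. Eif5a encodes the hypusine-bearing factor that helps ribosomes through difficult peptide bonds, and Eif4h encodes a cofactor of the helicase eIF4A. Eif4g2 stood above the spread of its neighbour, whereas the libraries of Eif5a and Eif1b overlapped, as did those of Eif1b and Eif4h. Among all 52 genes in order, 42 of 51 neighbouring pairs overlapped in their vehicle libraries, so the exact order carries little.

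**Figure D1:**
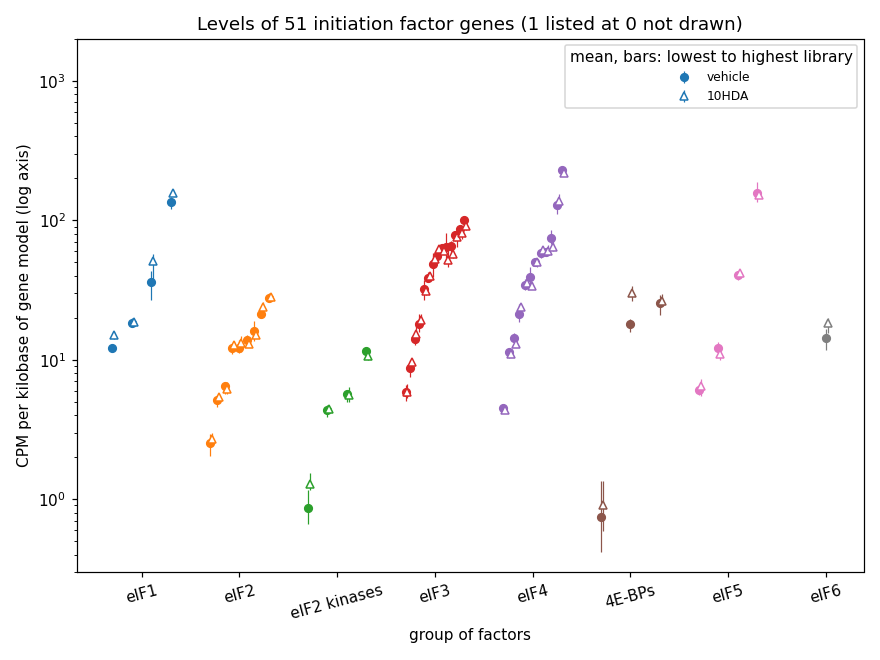
Level of each initiation factor gene in CPM per kilobase of gene model on a log axis, by group, as the mean of 3 vehicle libraries (filled circles) or 3 10HDA libraries (open triangles) with bars from the lowest to the highest library. Eif4g2 lies at the top at 230.4 with vehicle, Eif2ak2 and Eif4ebp3 lie at the bottom at 0.866 and 0.742, and for most genes both symbols nearly coincide.

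The eIF2 kinases lay toward the low end, at ranks 39, 45, 48 and 50 of 52, among genes of other groups such as Eif2a and Eif2b3. Eif2ak1, which encodes the heme-regulated kinase HRI, was at 11.5 ± 0.849 CPM per kilobase with vehicle, Eif2ak3 (PERK, the kinase of the endoplasmic reticulum) at 5.69 ± 0.619, and Eif2ak4 (GCN2, which senses uncharged tRNA) at 4.36 ± 0.411. Eif2ak2, the gene of PKR, the kinase that binds double-stranded RNA, reached only 0.866 ± 0.263 CPM per kilobase. Eif4e1b, the eIF4E paralog known from oocytes, was at 0 counts in all 6 libraries, which allows up to 3 counts in each. With 10HDA 18 of the 52 genes kept their rank and the largest shift was 5 places, made by Eif3a, which went from rank 10 to 15, by Eif3g, from 14 to 9, and by Eif4ebp1, from 28 to 23. Gene models that join exons of long, rarely used transcripts lower a level per kilobase. This could be so for Eif2b3 at 2.52 ± 0.433 over 6520 bases, and for the kinases, whose models span 5113 to 7457 bases.

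Of the 52 genes, 49 had at least 10 CPM in at least 3 libraries and were tested among 10520 genes. With edgeR's quasi-likelihood test and an adjusted p under 0.1, 1 rose with 10HDA, Eif4ebp1, and 0 fell, where 0.627% of all genes tested passed, 0.200% higher and 0.428% lower. DESeq2 called the same gene higher and no initiation factor lower, and called 1.62% of all genes. At an unadjusted p under 0.05 there were 4 of 49 (8.16%), all of them higher. Of all genes, 4.40% were higher and 5.67% lower at that p, or 10.1% in either direction. With culture as a block, 4 rose, Eif4ebp1, Eif1, Eif1ad and Eif6, where 3.91% of all genes rose, and 1 fell, Eif3a, where 5.08% of all genes fell. These 5 of 49 (10.2%) stood against 8.98% of all genes, so the share of initiation factors that passed was near the background. At an unadjusted p under 0.05 with the block there were 9 (18.4%), against 20.0% of all genes. Without culture 1 the block fit called Eif4ebp1, Eif1, Eif6 and Eif3a, and 6.76% of all genes.

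The median log2 fold change of the 49 genes was 0.021, with 27 above 0 and 22 below, and the median of all genes tested was -0.0095. The 95% interval lay wholly within -0.5 to 0.5 for 44 (89.8%), against 72.5% of all genes, and with the block for 45 against 84.5%. These shares were not matched for level, on which the width of an interval depends. Without the block, the intervals that reached outside belonged to Eif4ebp1, Eif1, Eif1ad, Eif6 and Eif3a. All 3 10HDA libraries lay above all 3 vehicle libraries for 4 genes (Eif4ebp1, Eif1ad, Eif1b and Eif2s2) and below them for 1 (Eif4e2), and these 5 were 10.2% against 13.4% of all genes. The sign was the same in all 3 cultures for 18 (36.7%), 8 higher and 10 lower, and for 39.5% of all genes.

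**Figure D2:**
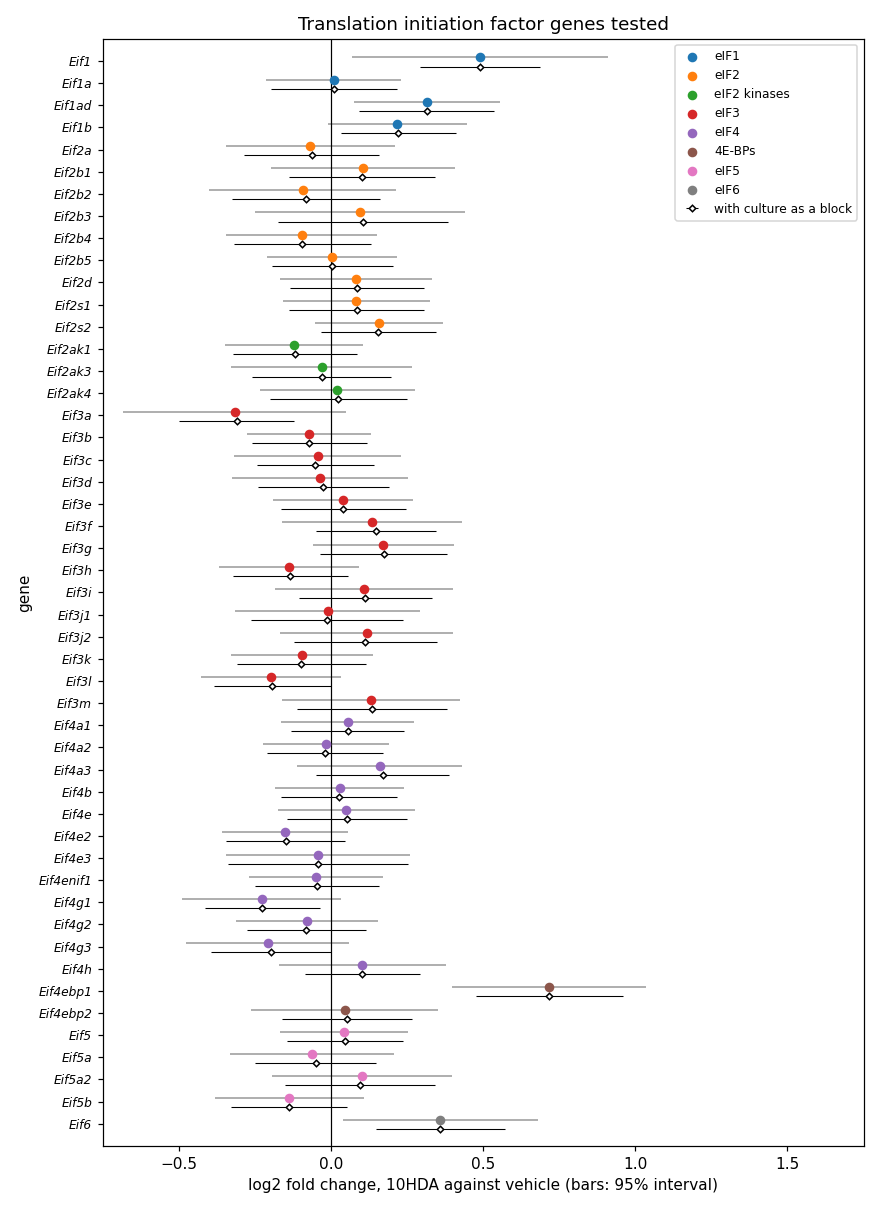
Log2 fold change of each tested initiation factor gene, 10HDA against vehicle, with its 95% interval, without a culture term (coloured points by group) and with culture as a block (open diamonds). Eif4ebp1 lies farthest to the right at 0.72 and Eif3a farthest to the left at -0.32, and most of the other intervals include 0.

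Among the tested factors the largest log2 fold change was that of a gene whose protein restrains initiation. Eif4ebp1 (ENSMUSG00000031490.5, chr8:27260329-27276674, plus strand, GRCm38) encodes 4E-BP1, which binds eIF4E and keeps it from eIF4G. With values given here and throughout in the order of cultures 1, 3 and 4, it was at 19.0, 15.4 and 19.0 CPM with vehicle and 32.9, 25.7 and 29.4 CPM with 10HDA. Every 10HDA library was above every vehicle library, and the mean went from 17.8 ± 2.11 to 29.3 ± 3.62 CPM (SD, n = 3). The log2 fold change was 0.72 (SE 0.14, adjusted p = 0.079 from edgeR), a fold of 1.64 with a 95% interval of 1.32 to 2.05. The cultures gave 0.77, 0.72 and 0.61 each on its own, and with the block the adjusted p was 0.00029. Without culture 1 the log2 fold change was 0.70 with the block (adjusted p = 0.0039) and 0.69 without it (adjusted p = 0.41, both from edgeR). Without a block, the call was also lost when vehicle library 3 (0.64, adjusted p = 0.20), vehicle library 4 (0.79, 0.22), 10HDA library 1 (0.63, 0.50) or 10HDA library 3 (0.81, 0.11) was left out, while the direction held.

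The other 4E-BPs gave no such result. Eif4ebp2, which encodes the main 4E-BP of the brain, was at 37.1, 48.3 and 51.9 CPM with vehicle and 43.3, 45.5 and 53.3 CPM with 10HDA, with a log2 fold change of 0.045 (SE 0.14, adjusted p = 0.93 from edgeR) and a 95% interval of -0.26 to 0.35. The groups overlapped, and cultures 1 and 3 had opposite signs. Counts of Eif4ebp1 per count of Eif4ebp2 within a library were 0.514, 0.318 and 0.367 with vehicle and 0.761, 0.564 and 0.552 with 10HDA, higher with 10HDA in each culture and without overlap. Per count of Eif4e, the gene of the cap-binding factor that 4E-BP1 holds, they were 0.176, 0.159 and 0.209 and 0.324, 0.236 and 0.304, also without overlap. Eif4ebp3 was at 1.01, 0.309 and 0.340 CPM with vehicle and 0.439, 0.590 and 1.01 CPM with 10HDA and was not tested.

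**Figure D3:**
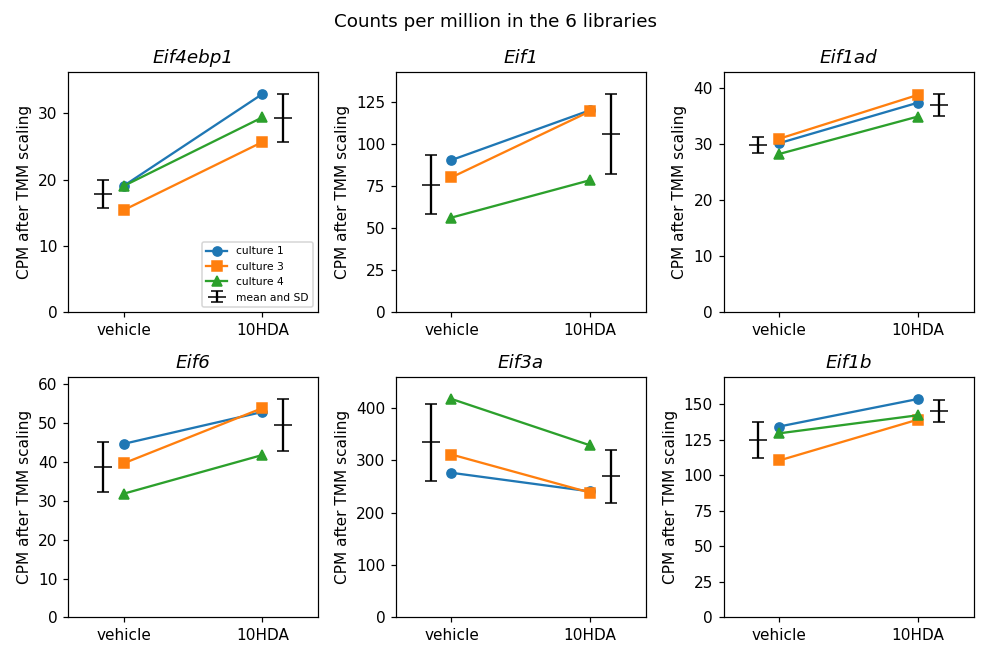
CPM after TMM scaling of Eif4ebp1, Eif1, Eif1ad, Eif6, Eif3a and Eif1b in the 6 libraries, with a line joining the vehicle and the 10HDA library of each culture and black marks for the mean and SD of 3 libraries. Every line of the first 4 genes and of Eif1b goes up and every line of Eif3a goes down, but the groups of Eif1, Eif6 and Eif3a overlap, with the cultures at different levels.

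In the eIF1 group the estimates were at or above 0 for all 4 genes. Eif1 (ENSMUSG00000035530.9, chr11:100319885-100322096, plus strand) encodes the factor that keeps the scanning ribosome from starting at a wrong codon. It was at 90.6, 80.3 and 56.3 CPM with vehicle and 120.3, 119.7 and 78.6 CPM with 10HDA. Culture 4 was lowest under both treatments, so the groups overlapped although Eif1 was higher with 10HDA within each culture, by 0.41, 0.57 and 0.48 on the log2 scale. The log2 fold change was 0.49 (SE 0.19, adjusted p = 0.43 from edgeR) without a block and passed only with it (0.49, SE 0.096, adjusted p = 0.0022). Leaving out culture 1 kept the call with the block (0.55, adjusted p = 0.0050 from edgeR).

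Eif1b encodes a near-identical eIF1 from another locus and was at 134, 110.4 and 129 CPM with vehicle and 154, 139 and 142 CPM with 10HDA. Its groups did not overlap, but its log2 fold change of 0.22 (SE 0.10, adjusted p = 0.51 from edgeR) did not pass without or with the block (adjusted p = 0.17 with it). Counts of Eif1 per count of Eif1b were 0.675, 0.727 and 0.435 with vehicle and 0.783, 0.860 and 0.553 with 10HDA, higher with 10HDA in each culture. Of the 2091 different 50-base stretches of Eif1 transcripts, 50 bases being the read length, 19.2% also occurred in other genes. Summed with the 10 processed pseudogenes that share such stretches, Eif1 was higher with 10HDA by 0.30, 0.40 and 0.40 in the 3 cultures.

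Eif1ad (ENSMUSG00000024841.7, chr19:5366741-5371526, plus strand) encodes a protein with an eIF1A-like domain and was at 30.2, 31.0 and 28.3 CPM with vehicle and 37.5, 38.9 and 35.0 CPM with 10HDA. All 10HDA libraries were above all vehicle libraries. Its log2 fold change was 0.32 (SE 0.11, adjusted p = 0.37 from edgeR) and passed only with the block (0.31, SE 0.11, adjusted p = 0.088). That call was lost without culture 1, 3 or 4 (0.33, 0.31 and 0.32, adjusted p = 0.17, 0.12 and 0.39 from edgeR) and with DESeq2 and the block (adjusted p = 0.31). The gene shares 13.2% of its 50-base stretches with its overlapping neighbour Banf1. Eif1a, for the factor that works beside eIF1 in scanning, had a log2 fold change of 0.0091 (SE 0.10, adjusted p = 0.98 from edgeR) and a 95% interval of -0.21 to 0.23.

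None of the genes of eIF2, eIF2B or their kinases passed edgeR's test, without or with the block. In the fit without it, 0 of 9 eIF2 and eIF2B genes and 0 of 3 tested kinases were under an unadjusted p of 0.05, and DESeq2 called none of them. Eif2s1, the gene of the alpha subunit that the kinases phosphorylate, was at 37.1, 44.0 and 42.2 CPM with vehicle and 46.2, 41.4 and 43.1 CPM with 10HDA. Its log2 fold change was 0.083 (SE 0.11, adjusted p = 0.80 from edgeR) with a 95% interval of -0.16 to 0.33, and the groups overlapped. Eif2s2, for the beta subunit, was at 146, 140.4 and 145 CPM with vehicle and 175, 149.8 and 156 CPM with 10HDA. Its 10HDA libraries lay above its vehicle libraries, but the difference of 0.16 (SE 0.095, adjusted p = 0.58 from edgeR) did not pass, nor did it with the block (adjusted p = 0.37).

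The 5 subunits of eIF2B, the exchange factor that recharges eIF2 with GTP, had log2 fold changes from -0.096 to 0.11. Eif2b1 (alpha subunit) was at 35.6, 29.7 and 28.5 CPM with vehicle and 33.8, 29.3 and 38.1 CPM with 10HDA. Eif2b2 (beta) was at 36.0, 25.7 and 29.1 CPM with vehicle and 27.8, 27.9 and 29.4 CPM with 10HDA. Both overlapped between treatments, and Eif2b1 was higher with 10HDA only in culture 4. Eif2b3 (gamma) was at 19.0, 13.4 and 16.9 CPM with vehicle and 16.0, 17.3 and 19.4 CPM with 10HDA. Eif2b4 (delta) was at 39.3, 33.5 and 34.8 CPM with vehicle and 33.7, 34.9 and 31.8 CPM with 10HDA. For these genes, too, the groups overlapped. Eif2b5, for the catalytic epsilon subunit, was the most abundant of the 5 in CPM, at 96.0, 83.9 and 88.3 CPM with vehicle and 86.9, 88.2 and 93.7 CPM with 10HDA. Its log2 fold change was 0.0028 (SE 0.097, adjusted p = 0.99 from edgeR) with a 95% interval of -0.21 to 0.22. In culture 1 all 5 genes were lower with 10HDA, while in culture 3 all but Eif2b1 and in culture 4 all but Eif2b4 were higher.

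Eif2a and Eif2d encode factors that can deliver an initiator tRNA without eIF2. Eif2a was at 41.9, 34.4 and 41.9 CPM with vehicle and 34.7, 36.1 and 42.3 CPM with 10HDA. Eif2d was at 41.3, 33.7 and 38.1 CPM with vehicle and 39.0, 39.0 and 41.7 CPM with 10HDA. Neither separated by treatment, with log2 fold changes of -0.067 and 0.082.

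Among the kinases, Eif2ak1 (HRI) was at 67.8, 59.9 and 68.7 CPM with vehicle and 63.3, 56.8 and 60.7 CPM with 10HDA. It was lower with 10HDA in all 3 cultures, but the log2 fold change of -0.12 (SE 0.10, adjusted p = 0.69 from edgeR) did not pass. Eif2ak3 (PERK) was at 27.0, 32.5 and 33.1 CPM with vehicle and 26.8, 29.6 and 34.4 CPM with 10HDA, with a log2 fold change of -0.031 (SE 0.14, adjusted p = 0.95 from edgeR). Eif2ak4 (GCN2) was at 29.1, 35.0 and 33.5 CPM with vehicle and 32.3, 33.8 and 33.1 CPM with 10HDA, with a log2 fold change of 0.021 (SE 0.12, adjusted p = 0.96 from edgeR). The libraries of all 3 kinases overlapped between treatments, and their 95% intervals of -0.35 to 0.11, -0.33 to 0.27 and -0.23 to 0.27 stayed within 0.5 of 0. RNA levels say nothing of whether a kinase was active.

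Eif2ak2 (PKR) did not reach the filter, at 3.39, 3.94 and 5.95 CPM with vehicle and 5.97, 5.90 and 7.85 CPM with 10HDA. It was higher with 10HDA in each culture, and the groups overlapped by a small margin. With a filter of 1 CPM its log2 fold change was 0.57 (SE 0.23, adjusted p = 0.42 from edgeR). With that filter and the block, a setting chosen after seeing the data, it passed (0.60, SE 0.19, adjusted p = 0.071), beside 7.50% of 15311 genes.

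**Figure D4:**
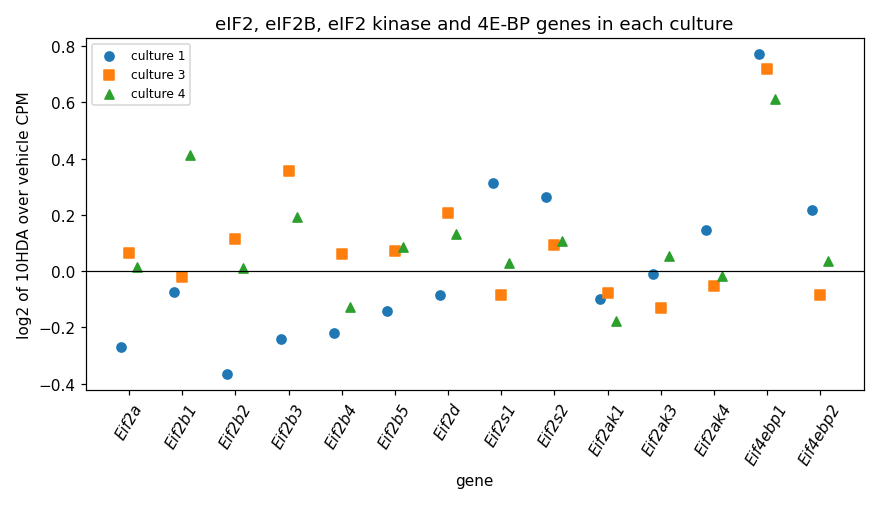
Log2 ratio of 10HDA over vehicle CPM in each of the 3 cultures (with 0.5 CPM added to both) for the tested genes of eIF2, eIF2B, the eIF2 kinases and the 4E-BPs. Eif4ebp1 lies between 0.61 and 0.77 in all 3 cultures, while the eIF2B genes lie below 0 in culture 1 and mostly above it in cultures 3 and 4.

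Of the 14 eIF3 genes, all tested, 6 had estimates above 0 and 8 below, with a median of -0.023. Eif3a (ENSMUSG00000024991.7, chr19:60761117-60790658, minus strand) encodes the largest subunit, on which the complex is built. It was at 276, 311 and 417 CPM with vehicle and 240.3, 238 and 328 CPM with 10HDA. Culture 4 was highest under both treatments and the groups overlapped, but each culture was lower with 10HDA, with log2 ratios of -0.20, -0.38 and -0.34. The log2 fold change of -0.32 (SE 0.17, adjusted p = 0.53 from edgeR) passed only with the block (-0.31, SE 0.092, adjusted p = 0.045), where it held without culture 1 (-0.35, adjusted p = 0.047) and was lost when library size alone set the scale (-0.23, adjusted p = 0.12). Without culture 3 or culture 4 the blocked log2 fold change was -0.27 and -0.29 and did not pass (adjusted p = 0.11 and 0.43 from edgeR).

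Eif3l, for a subunit at the edge of the complex, had the next smallest p of the group and was at 134, 110.5 and 127 CPM with vehicle and 108, 102 and 115 CPM with 10HDA. It was lower with 10HDA in each culture, but its log2 fold change of -0.20 (SE 0.10, adjusted p = 0.54 from edgeR) did not pass with the block either (adjusted p = 0.25). The other subunits ranged from -0.14 (Eif3h) to 0.17 (Eif3g), so the signs within the complex were mixed. The loosely bound subunit eIF3j has a pair of genes that reads cannot fully separate. Eif3j2 shares 91.8% of its 50-base stretches with other genes, chiefly Eif3j1, and the sum of both differed, on the log2 scale, by 0.039, -0.22 and 0.35 in the 3 cultures. Eif3d shares 37.2%, with an antisense gene, and in all 14 of the 52 genes share over 10%.

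In the eIF4 group, 12 of 13 genes were tested and none passed with edgeR or DESeq2, without or with the block (0 under an unadjusted p of 0.05 without it and 2 with it). All 3 genes of the scaffold eIF4G were lower with 10HDA in all 3 cultures after TMM scaling, whereas on library size alone, a scale chosen after seeing the data, Eif4g3 had a log2 ratio of 0.043 in culture 1 and Eif4g2 of 0.073 in culture 4. Eif4g1, the main form, was at 485, 522 and 612 CPM with vehicle and 435, 435 and 513 CPM with 10HDA, with a log2 fold change of -0.23 (SE 0.12, adjusted p = 0.53 from edgeR) and an adjusted p of 0.16 with the block. Eif4g3 was at 375, 418 and 511 CPM with vehicle and 371, 359 and 398 CPM with 10HDA, with a log2 fold change of -0.21 (SE 0.12, adjusted p = 0.58 from edgeR) and an adjusted p of 0.25 with the block. Eif4g2 differed by -0.079 (95% interval -0.31 to 0.15). None of the 3 passed the test.

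Eif4e, for the cap-binding protein itself, had a log2 fold change of 0.050 (SE 0.10, adjusted p = 0.88 from edgeR). Eif4e2, whose protein 4EHP binds caps and represses translation, was at 116, 101 and 106 CPM with vehicle and 95.0, 98.4 and 97.3 CPM with 10HDA. Its 10HDA libraries all lay below its vehicle libraries, yet the log2 fold change of -0.15 (SE 0.094, adjusted p = 0.60 from edgeR) did not pass. The helicase genes Eif4a1 and Eif4a2 differed by 0.055 and -0.016, and Eif4a3, for the helicase of the exon junction complex, by 0.16. Eif4b and Eif4h, for cofactors of the helicase, differed by 0.029 and 0.10, Eif4e3 by -0.043 and Eif4enif1, for the eIF4E transporter 4E-T, by -0.048. Eif4a1 is uncertain, because 28.4% of its 50-base stretches occur elsewhere, chiefly in the copy Eif4a-ps4, which drew 3365 counts per library on average against 3009 for Eif4a1. Their sum differed, on the log2 scale, by -0.067, -0.056 and 0.10 in the 3 cultures.

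None of the 4 eIF5 genes passed with edgeR or DESeq2, without or with the block, and 0 were under an unadjusted p of 0.05. Eif5b, for the GTPase that joins the ribosomal subunits, was at 111, 112 and 129.5 CPM with vehicle and 103, 97.3 and 121 CPM with 10HDA and lower with 10HDA in each culture, with a log2 fold change of -0.14 (SE 0.11, adjusted p = 0.68 from edgeR). Eif5a2 was at 28.1, 32.6 and 30.1 CPM with vehicle and 34.1, 27.4 and 36.3 CPM with 10HDA, with a log2 fold change of 0.10 (SE 0.13, adjusted p = 0.80 from edgeR). Eif5, for the GTPase activator of eIF2, and Eif5a differed by 0.043 and -0.062.

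Eif6 (ENSMUSG00000027613.11, chr2:155819832-155826925, minus strand) encodes the factor that keeps the large ribosomal subunit from joining too early. It was at 44.7, 39.7 and 31.9 CPM with vehicle and 52.9, 53.9 and 41.8 CPM with 10HDA. Within each culture it was higher with 10HDA, by 0.24, 0.44 and 0.39 on the log2 scale, and the groups overlapped because the 10HDA library of culture 4 lay below the vehicle library of culture 1. The log2 fold change of 0.36 (SE 0.15, adjusted p = 0.45 from edgeR) passed only with the block (0.36, SE 0.10, adjusted p = 0.038). There the call held without culture 1 (0.44, adjusted p = 0.045) or culture 3 (0.31, adjusted p = 0.083) and was lost without culture 4 (0.35, adjusted p = 0.31, all from edgeR) and with DESeq2 and the block (0.37, adjusted p = 0.14).

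Promoters were examined for the genes that passed with or without the block, since motifs near the start site are one thing such genes might share. The RefSeq table (GRCm38.p6) held 53 windows, from 250 bases before to 50 after a start site, for 40 of the 52 genes. Eif1, Eif1ad and Eif3a were among them, and Eif4ebp1 and Eif6 were not. On both strands, the ATF4 response element TGATGNAAN was in 0 of the 53 windows, against 3.95% of all 32851. The core of the antioxidant response element, TGACNNNGC, was in 8 (15.1%), against 12.4% of all, a share close to the background. The 53 windows had a median GC content of 62.3%, against 52.7% for all 32851. The shares of both motifs were not matched for it. The matches of Eif1, at chr11:100319800-100319900 on the plus strand, and of Eif3a, at chr19:60790737-60790837 on the minus strand, are shown in capitals within 101 bases, because one of these genes was higher and the other lower with the block.
Eif1: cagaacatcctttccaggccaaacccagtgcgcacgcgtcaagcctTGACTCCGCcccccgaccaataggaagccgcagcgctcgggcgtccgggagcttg
Eif3a: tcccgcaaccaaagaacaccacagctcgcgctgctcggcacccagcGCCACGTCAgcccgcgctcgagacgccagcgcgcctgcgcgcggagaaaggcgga
In Eif3a the element reads on the opposite strand of the sequence shown. The matches began at positions -103 and -98 from the start site, and the Eif1ad window held neither motif. A match is a run of letters and no evidence of binding.

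Other genes of the same pathways were taken from lists that were written with earlier results of these data known. Among 36 tested partners of initiation, such as poly(A)-binding proteins, mTORC1 subunits and S6 kinases, 0 passed with edgeR, 0 with DESeq2 and 3 were under an unadjusted p of 0.05 (8.33%, against 10.1% of all genes), with a median of -0.023. With the block, Rheb, for the GTPase that activates mTORC1, rose by 0.29, while Pabpc1, for the main poly(A)-binding protein, fell by 0.29 and Cyfip2, for a partner of FMRP, fell by 0.28 on the log2 scale. These 3 were 8.33% of the list, near the 8.98% of all genes called with the block. Among 15 tested regulators of eIF2 phosphorylation, none passed with edgeR without the block (0 with DESeq2 and 1 under an unadjusted p of 0.05, or 6.67% against 10.1% of all genes). With the block Ppp1r15a, which encodes the stress-induced phosphatase subunit GADD34, rose (0.39, adjusted p = 0.031 from edgeR). This 1 gene was 6.67% of the list, below the 8.98% of all genes called with the block. Of 16 elongation and release factor genes, Eef1a2, for the elongation factor form of mature neurons and muscle, fell by 0.52 (adjusted p = 0.053 from edgeR), and no other passed in either fit. Eef1a2 alone was 6.25% of that list, where 0.627% of all genes passed without the block and 8.98% with it.

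The list of genes that ATF4 is known to activate, ATF4 being the factor whose mRNA is translated more when eIF2 is phosphorylated, was set beside the initiation factors. Of its 24 tested genes 22 had estimates above 0, with a median log2 fold change of 0.29 against -0.0095 over all genes, and 5 rose and 0 fell, where 0.200% of all genes rose and 0.428% fell. The log2 fold changes were 1.50 (adjusted p = 0.015 from edgeR) for the pseudokinase gene Trib3, 0.90 (adjusted p = 0.027 from edgeR) for Chac1, whose enzyme degrades glutathione, 0.80 (adjusted p = 0.043 from edgeR) for Sesn2, whose product senses leucine for mTORC1, and 0.67 (adjusted p = 0.050 from edgeR) for Ddit3, which encodes the transcription factor CHOP. The fifth, the transcription factor gene Atf5, had 0.68 (adjusted p = 0.050 from edgeR) and is named after its values were seen. Trib3 passed the filter only through the 10HDA libraries, at a mean of 3.96 CPM with vehicle. The median log2 ratio of the list was 0.30, 0.32 and 0.35 in cultures 1, 3 and 4. The calls without the block depended on which cultures were kept, however. Single cultures were also left out without the block, a setting chosen after seeing the data. Of all 10520 genes tested, 1 was then called higher without culture 1, 0 without culture 3 and 20 without culture 4. Such fits also have fewer libraries per treatment. With the block 12 rose, against 3.91% of all genes, and 1 fell, against 5.08%, the latter being Slc7a11, for the cystine transporter, with a log2 fold change of -0.78, also named after its values were seen. Eif4ebp1 is itself commonly counted among ATF4 targets, and it was kept out of that list because it belongs to the initiation factors.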

How the data were processed

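Total RNA from primary cortical cultures (3 vehicle and 3 10HDA libraries) had been made into strand-specific libraries and sequenced as 50-base single-end reads. The authors aligned them to mm10 (GRCm38) with Subjunc (Subread 1.4.4) and used featureCounts to count reads on Gencode gene models, with a strand setting not given in the sources used here, so overlapping antisense genes may share reads. The deposited values are these raw counts. Symbols came from GENCODE M21 (98.0% of identifiers matched), and gene lengths were those deposited with the counts.

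Counts were scaled by TMM, and genes that reached 10 CPM in 3 or more libraries were compared with edgeR 4.0.16 in R 4.3.3 (glmQLFit and glmQLFTest), with Benjamini-Hochberg adjustment over all genes tested and a threshold of 0.1, after the study's methods, which name no culture term. Libraries held 9144736 to 13367194 counts, and the limit of 3 counts covers counting error only. With 3 against 3 an exact permutation test cannot go below p = 0.1, so none is given. Whether cultures came from separate litters is not stated, and p-values measure the spread between these libraries.

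The labels pair the libraries by culture. Deviations from treatment means correlated across genes at 0.37, 0.24 and 0.62 within cultures 1, 3 and 4 and at -0.45 to 0.18 between cultures. Alternatives were culture as a block, other scalings, DESeq2 1.42.0, other filters, a threshold of 0.05, and each library and culture left out. Standard errors were the fold change over the root of the F statistic. Scripts were tested on simulated data. Members and lists were chosen with earlier results of these data known. Genes given by their values in every library are those past the threshold without or with the block, all of eIF2, its kinases and the 4E-BPs, and the 2 of smallest p in each other group. Eif1b and Eif4e2 were added after their values were seen. From each pathway list, genes past the threshold were named, at most 4 by p without the block.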

Additional observations from a re-analysis of the deposited data

How the results depend on the processing

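With culture as a replicate block, the initiation factors past the threshold numbered 4 higher and 1 lower in place of 1 and 0, and the genes of the 4 pathway lists numbered 18 in place of 6. DESeq2 with the block gave 2 higher, 1 lower and 15 list genes. The filter of 1 count in all gave 2 higher and 12 list genes, and a threshold of 0.05 gave 0 higher. Leaving out single libraries gave 0 to 2 higher, 0 lower and 0 to 10 list genes. Leaving out single cultures gave 2 to 3 higher, 0 to 1 lower and 7 to 20 list genes with the block (16 without culture 1). Settings chosen after seeing the data were cultures left out without the block, which gave 0 higher and 0 to 3 list genes, the block with library size scaling, which gave 5 higher, 0 lower and 27 list genes, the block with DESeq2's size factors, which gave 4, 1 and 18, and the block with a filter of 1 CPM, which gave 5, 1 and 19. The block lets the shifts between cultures drop out of the error, and the cause of the other differences was not tested. The block changed the call of no other tested initiation factor, and no result past the threshold changed sign. Library size scaling moved the median of all genes to 0.067, and the medians of the eIF2 kinases and of the eIF3, eIF4 and eIF5 genes, below 0 with TMM, then lay above 0, as did those of the initiation partners and the elongation and release factors. The counts behind Eif4ebp1 were 199 to 375 per library.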
